A study of Mus musculus with 2 samples.

Results

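Described here are 6 genes, across T cells and the other cell classes gated in the same libraries of a mouse melanoma model. Zc3hav1l, Osgin1, Rhoq, Rab43, Cpeb2 and Fbxl22 are among the genes with the largest differences between treated and untreated T cells. They are 6 of the 15121 genes in the deposited table, and all 6 were found by symbol. They were chosen because of their treated and untreated levels in T cells, so their T cell values are given as a description. The cells came from the NILER model, a syngeneic mouse melanoma derived from the Nras Q61R line NIL and exposed to ultraviolet radiation to raise its mutational load. On day 5, 1 library was made from a group treated with trametinib, which blocks the kinases MEK1 and MEK2, and BGB-283, which blocks RAF kinases, and 1 from an untreated group. Both libraries carry the label T cells. With 1 library per group there was no spread between libraries, no test was made, and treatment and batch cannot be told apart. The question addressed is which of the higher levels were seen in T cells and which were also seen in the other cells of the same libraries.

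The proteins act in different parts of the cell. Zc3hav1l is a paralog of Zc3hav1, the CCCH zinc finger antiviral protein that binds CpG-rich RNA. Cpeb2 binds cytoplasmic polyadenylation elements in messenger RNA and regulates its translation. Rab43 is a small GTPase of the Rab family that acts in traffic around the Golgi apparatus, and in mouse it is known for a part in antigen cross-presentation by CD8 alpha dendritic cells. Rhoq, also called TC10, is a small GTPase that acts with the exocyst in vesicle traffic. Osgin1 is a growth inhibitor induced by oxidative stress and responds to the transcription factor NRF2. Fbxl22 is an F-box protein, the substrate-binding part of an SCF ubiquitin ligase, known from heart and skeletal muscle.

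The treated library held 8078 cells with a median of 5987.5 UMIs, and the untreated library 9312 cells with a median of 6155 UMIs. A UMI marks 1 captured RNA molecule, and 35 cell barcodes occurred in both libraries. After filtering, 7355 treated and 8671 untreated cells remained. Cells were assigned to lineages by the UMIs of marker panels. T cells, gated on Cd3d, Cd3e, Cd3g and Trac, made up 83.4% of treated cells (82.5 to 84.2%) and 75.7% of untreated cells (74.8 to 76.6%). Trbc2, a T cell receptor gene that was not used in the gate, stood at 1015 and 1648 CPM (UMIs of the gene scaled to 1000000 UMIs of the class) in treated and untreated T cells, against 14.8 and 19.4 CPM in treated and untreated macrophages. The label T cells therefore held for most of each library and not for all of it. Among T cells, 4562 treated and 3897 untreated cells were CD8 T cells, and 457 treated and 866 untreated cells were CD4 helpers. Regulatory T cells numbered 390 treated and 440 untreated, gamma delta T cells 46 treated and 39 untreated, and T cells of no such class 677 treated and 1324 untreated. Of the non-T cells, 414 were treated and 530 untreated. The summed CPM of the erythroid genes Hba-a1 and Hbb-bs was 1.74 in treated and 228.7 in untreated T cells, and the part of such RNA in the results was not tested. All intervals are at the 95% level and cover counting error only.

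The promoters of 3 members are shown because these genes stand for the patterns described next. Osgin1 and Rhoq had their largest treated T cell levels in CD8 T cells, and Zc3hav1l was high in every T cell class of the treated library. Each runs from 250 bases before to 50 bases after the RefSeq start site in GRCm38.p6, and 5 of the 6 members had an entry, Cpeb2 being the one without. Capitals mark the match to a searched motif. The Osgin1 promoter is chr8:119436897-119437196 on the plus strand, the Rhoq promoter chr17:86962861-86963160 on the plus strand, and the Zc3hav1l promoter chr6:38299210-38299509 on the minus strand.
Osgin1: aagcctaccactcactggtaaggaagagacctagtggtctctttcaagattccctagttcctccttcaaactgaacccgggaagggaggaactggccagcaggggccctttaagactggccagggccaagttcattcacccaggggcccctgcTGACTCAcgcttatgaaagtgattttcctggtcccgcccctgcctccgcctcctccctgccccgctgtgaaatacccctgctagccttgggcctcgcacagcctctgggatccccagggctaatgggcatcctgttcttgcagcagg
Rhoq: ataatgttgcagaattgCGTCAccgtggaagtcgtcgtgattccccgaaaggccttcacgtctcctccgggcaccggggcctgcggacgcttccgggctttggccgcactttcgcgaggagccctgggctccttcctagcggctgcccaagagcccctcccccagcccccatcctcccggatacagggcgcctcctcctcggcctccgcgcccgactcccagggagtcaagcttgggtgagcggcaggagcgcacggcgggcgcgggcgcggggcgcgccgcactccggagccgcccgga
Zc3hav1l: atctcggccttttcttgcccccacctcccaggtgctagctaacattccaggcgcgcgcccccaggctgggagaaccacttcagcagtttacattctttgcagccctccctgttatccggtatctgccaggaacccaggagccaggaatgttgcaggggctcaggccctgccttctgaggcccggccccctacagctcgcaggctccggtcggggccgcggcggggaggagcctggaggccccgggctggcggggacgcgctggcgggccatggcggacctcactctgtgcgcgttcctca

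In all, 6 motifs were searched on both strands: AP-1 (TGANTCA), the cyclic AMP response element (CRE, TGACGTCA), the shorter CRE core (TGACG, which lies within the CRE), the antioxidant response element that NRF2 binds (TGACNNNGC), the E-box CACGTG and the NR4A response element (AAAGGTCA). Osgin1 held an AP-1 match, TGACTCA, from 97 to 91 bases before the start site, and 7.81% of 32851 promoters hold an AP-1 match. Rhoq held a CRE core, CGTCA as read on the plus strand, from 233 to 229 bases before the start, and 20.8% of promoters hold one. Zc3hav1l held none of the 6 motifs. Of the promoters not printed, Rab43 held an antioxidant response element match in the windows of 2 of its 4 start sites, a motif in 12.4% of promoters, and Fbxl22 held an E-box, a motif in 7.15% of promoters. No motif was shared by 2 members. GC content was 71.0% in the Rhoq promoter, 67.3% in Zc3hav1l and 58.7% in Osgin1, against a median of 52.7% over all promoters.

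In all T cells, the 6 genes were each at least 2-fold higher in the treated library, as were 14.9% of the 5720 genes with at least 20 CPM in 1 library. Because the members were chosen on this contrast, nothing is read from that count. By fold among 5499 ranked genes, Zc3hav1l was first, Osgin1 second, and Rhoq, Rab43, Cpeb2 and Fbxl22 stood at ranks 6, 7, 8 and 10. The median fold over the 6 was 8.59, against 1.14 over all 5720 genes.

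Zc3hav1l had 62.5 CPM (60.1 to 65.0) in treated T cells and 2.11 CPM (1.71 to 2.58) in untreated T cells, a 29.6-fold difference (24.2 to 36.7). These levels rest on 2553 and 97 UMIs. Osgin1 had 73.2 CPM in treated and 4.40 CPM in untreated T cells, a 16.6-fold difference (14.4 to 19.3). Both stood at under 5 CPM in untreated T cells.

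Rhoq had 140.0 CPM in treated and 15.8 CPM in untreated T cells, 8.89-fold (8.23 to 9.62). Rab43 had 58.1 CPM in treated and 7.01 CPM in untreated T cells, 8.29-fold (7.38 to 9.35). Cpeb2 had 48.6 CPM in treated and 6.14 CPM in untreated T cells, 7.92-fold (6.985 to 9.001). The folds of these 3 genes had overlapping counting intervals. Fbxl22, the least counted member, had 21.2 CPM in treated and 2.81 CPM in untreated T cells, 7.55-fold (6.27 to 9.15).

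**Figure D1:**
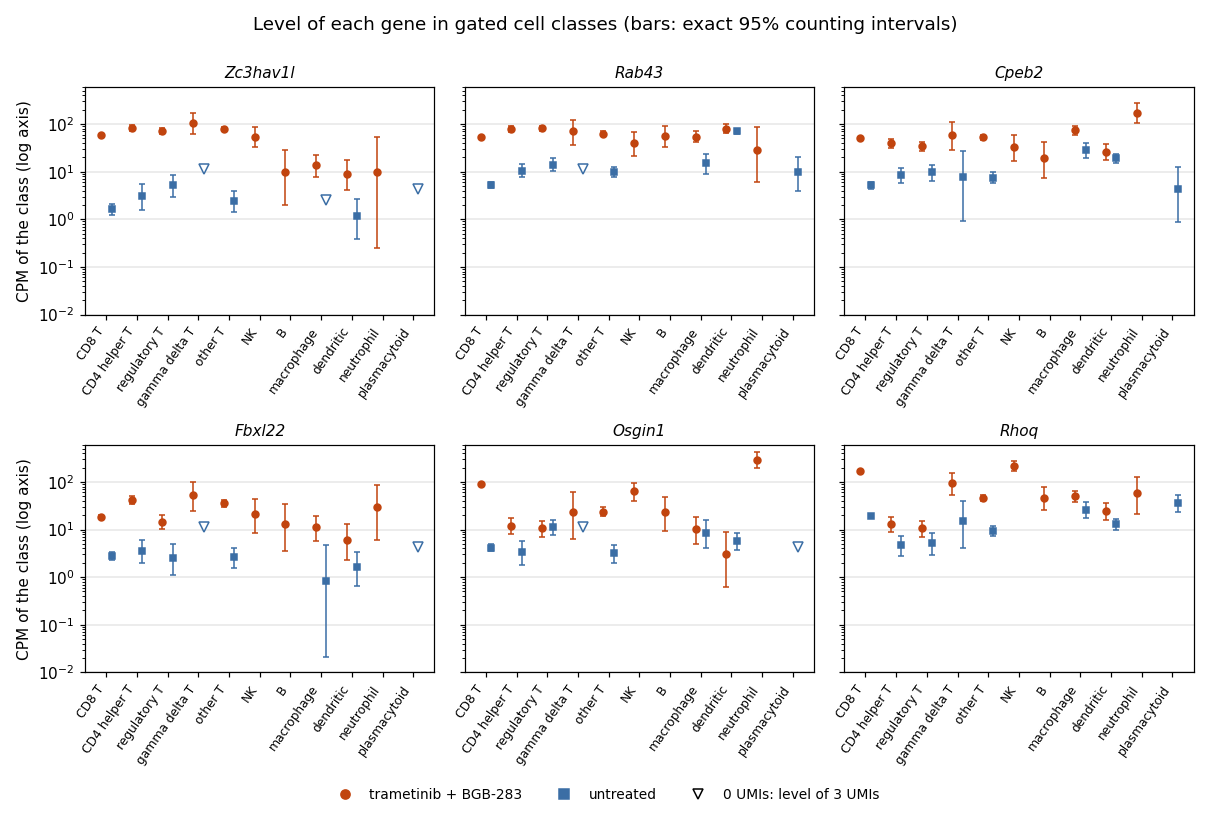
Level of each gene in gated cell classes, in CPM of the class on a log axis, for the treated (circles) and untreated (squares) library with exact 95% counting intervals; open triangles mark the level of 3 UMIs where 0 were seen, and classes with fewer than 30 cells in a library are not drawn for that library. Treated points lie above untreated points in every T cell class except for Osgin1 in regulatory T cells, at 10.6 and 11.3 CPM.

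Every gene but Osgin1 was at least 2-fold higher in the treated library in each T cell class as gated. The treated levels of Osgin1 and Rhoq were far higher in CD8 than in CD4 helper or regulatory T cells. In CD8 T cells all 6 genes were at least 2-fold higher in the treated library, beside 17.3% of genes overall. The same held in CD4 helper T cells, beside 13.7% of genes, in gamma delta T cells, beside 24.1%, and in T cells of no named class, beside 13.0%. In regulatory T cells 5 of the 6 were at least 2-fold higher, beside 6.64% of genes, and Osgin1 was the exception. All 6 members passed the background's filter on low levels in all T cells, but 5 did in CD8, 4 in CD4 helper and 3 in regulatory T cells, and 3 in macrophages and in dendritic cells. In all non-T cells 4 passed it, in migratory dendritic cells 2 and in gamma delta T cells 1. The counts given are over all 6. T cell counts were part of the choice of members, and classes of 1 library are not replicates.

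Zc3hav1l was 36.0-fold higher in CD8 T cells, at 58.4 CPM in treated and 1.62 CPM in untreated cells. It was 26.2-fold higher in CD4 helper T cells (14.7 to 51.7), at 81.3 CPM in treated and 3.10 CPM in untreated cells. In regulatory T cells it was 13.7-fold higher (8.25 to 24.5), at 70.8 CPM in treated and 5.15 CPM in untreated cells. Its treated levels thus lay within a range of 58.4 to 81.3 CPM in these classes, and its untreated level was highest in regulatory T cells.

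Rab43 was 10.4-fold higher in CD8 T cells (8.82 to 12.2), 7.47-fold higher in CD4 helper T cells (5.29 to 10.8) and 5.72-fold higher in regulatory T cells (4.12 to 8.09). Its treated level was 54.1 CPM in CD8, 79.1 CPM in CD4 helper and 81.0 CPM in regulatory T cells, and its untreated level was 5.23, 10.6 and 14.2 CPM in the same order. Of these 3 classes, CD8 T cells held the lowest Rab43 level in both libraries. Cpeb2 was 9.68-fold higher in CD8 (8.23 to 11.4), 4.64-fold higher in CD4 helper (3.08 to 7.15) and 3.55-fold higher in regulatory T cells (2.33 to 5.55). For Cpeb2 the interval in CD8 T cells did not overlap those of the other 2 classes, and a difference between classes was not tested.

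Fbxl22 stood at 41.8 CPM in treated and 3.62 CPM in untreated CD4 helper T cells, an 11.6-fold difference (6.55 to 22.0). In CD8 T cells it stood at 18.5 CPM in treated and 2.80 CPM in untreated cells, 6.61-fold (5.27 to 8.36). In regulatory T cells it stood at 14.6 CPM in treated and 2.58 CPM in untreated cells, 5.67-fold (2.62 to 14.0). These 3 intervals overlapped.

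Osgin1 showed another pattern. It had 88.6 CPM in treated and 4.17 CPM in untreated CD8 T cells, a 21.2-fold difference (17.8 to 25.5). In CD4 helper T cells it had 12.1 CPM in treated and 3.36 CPM in untreated cells, 3.61-fold (1.801 to 7.63). In regulatory T cells it had 10.6 CPM (7.08 to 15.2) in treated and 11.3 CPM (7.85 to 15.7) in untreated cells, a fold of 0.94 (0.55 to 1.58). The interval in CD8 T cells did not overlap those of the other 2 classes, and the regulatory T cell interval spans both directions.

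Rhoq followed the same order. It had 170.7 CPM in treated and 19.7 CPM in untreated CD8 T cells, 8.69-fold (7.99 to 9.45). In CD4 helper T cells it had 13.0 CPM in treated and 4.65 CPM in untreated cells, 2.80-fold (1.505 to 5.36), and in regulatory T cells 10.6 CPM in treated and 5.15 CPM in untreated cells, 2.05-fold (1.08 to 4.05). Over the processing alternatives its log2 fold in regulatory T cells ran from 0.84 to 1.31, on both sides of 2-fold. Treated CD4 helper T cells thus held 7.63% of the treated CD8 T cell level of Rhoq and 13.7% of that of Osgin1, beside 139.2% of that of Zc3hav1l. In gamma delta T cells Rhoq had 16 treated and 4 untreated UMIs, 94.3 and 15.3 CPM. Zc3hav1l, Rab43, Fbxl22 and Osgin1 had 18, 12, 9 and 4 UMIs in treated gamma delta T cells and 0 in untreated ones. Against a floor of 3 UMIs they were 9.27-fold, 6.18-fold, 4.64-fold and 2.06-fold higher, without the counting error of the treated UMIs. Over the alternatives the log2 values there ran from 1.37 to 3.46 for Zc3hav1l, from 1.525 to 2.84 for Rab43, from 0.20 to 2.46 for Fbxl22 and from 0.53 to 3.04 for Osgin1, so Fbxl22 and Osgin1 lay on both sides of 2-fold.

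**Figure D2:**
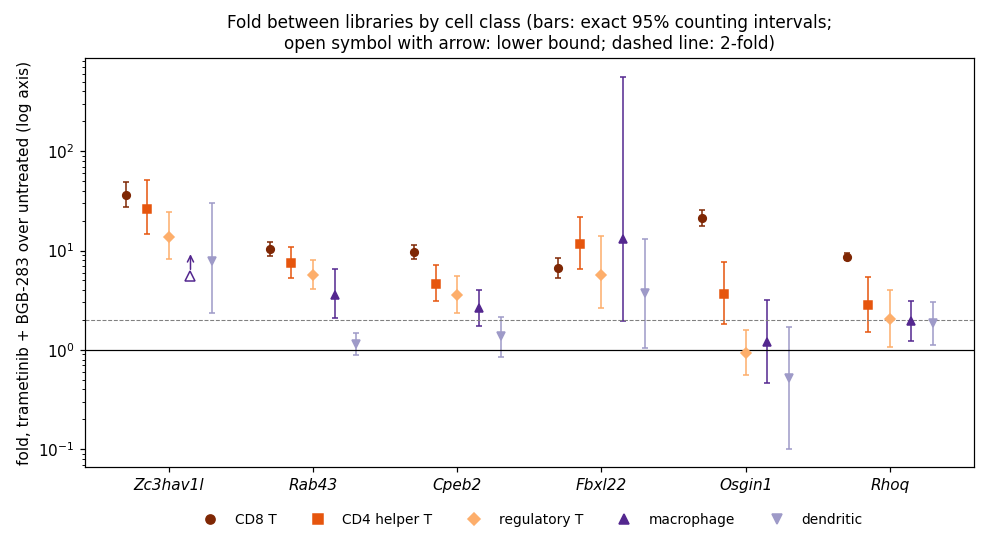
Fold of each gene, treated over untreated on a log axis, in 5 cell classes with exact 95% counting intervals; the open triangle with an arrow is a lower bound, and the dashed line marks 2-fold. Osgin1 and Rhoq have their highest folds in CD8 T cells, at 21.2 and 8.69, while Rab43 lies at 1.15 in dendritic cells and above 5 in the 3 T cell classes.

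CD8 T cells differed in make-up between the libraries, so the genes were also read within CD8 states. Cells with Pdcd1, the gene of the checkpoint receptor PD-1, and no UMI of Tcf7, a factor of naive and memory-like T cells, numbered 2627 in the treated and 472 in the untreated library. Naive-state cells, with a UMI of a naive T cell marker such as Ccr7 or Lef1 and neither Pdcd1 nor Tox, numbered 677 treated and 2197 untreated. All 6 genes were at least 2-fold higher in the treated library in each state. The share of all genes past 2-fold was 17.0% in naive-state cells, 15.6% in cells with both Pdcd1 and Tcf7, 17.6% in cells with Pdcd1 alone, 13.0% in cycling cells and 19.6% in the other CD8 T cells.

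Osgin1 had 17.8 CPM in treated and 0.38 CPM in untreated naive-state cells, from 69 and 5 UMIs, and 111.3 CPM in treated and 10.2 CPM in untreated cells with Pdcd1 alone. Rhoq had 33.3 CPM in treated and 5.30 CPM in untreated naive-state cells, and 218.1 CPM in treated and 50.3 CPM in untreated cells with Pdcd1 alone. Within each library both genes were therefore higher in cells with Pdcd1 alone than in naive-state cells. In the treated library they had 83.1 and 119.0 CPM in the other CD8 T cells, which lack a Pdcd1 UMI. Treated cells with both Pdcd1 and Tcf7 were lower, at 44.45 and 87.25 CPM. For Rhoq the intervals of these 2 treated states overlapped. In the untreated library the other CD8 T cells had 3.15 and 8.41 CPM. Untreated cells with both Pdcd1 and Tcf7 had 3.81 and 12.95 CPM. The untreated intervals overlapped for both genes, and the Osgin1 levels rest on 12 and 5 UMIs, so no order is read there. The folds of Osgin1 and Rhoq were 47.0 (19.2 to 149.2) and 6.27 (4.65 to 8.51) in naive-state cells. In cells with Pdcd1 alone they were 10.9 (8.18 to 14.9) and 4.33 (3.79 to 4.97). Osgin1 in treated naive-state cells was above its level in untreated cells of every CD8 state.

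Fbxl22 had the opposite order between naive-state cells and cells with Pdcd1 alone. It had 51.3 CPM in treated and 4.39 CPM in untreated naive-state cells, and 12.6 CPM in treated and 0.87 CPM in untreated cells with Pdcd1 alone, the last from 4 UMIs. Zc3hav1l stood at 80.4 CPM in treated and 1.14 CPM in untreated naive-state cells, a 70.8-fold difference (42.3 to 128.0), and at 58.0 CPM in treated and 2.17 CPM in untreated cells with Pdcd1 alone, 26.7-fold (14.5 to 55.9). Rab43 and Cpeb2 differed less between states: in treated cells they ranged from 35.2 to 62.0 CPM and from 34.7 to 56.7 CPM, with cycling cells lowest for both.

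Averaging the CPM of the 5 states with equal weight gave 12.9-fold for Osgin1 and 5.67-fold for Rhoq, against 21.2-fold and 8.69-fold with the states as found. The mix of states thus moved these 2 folds by more than 1.5 times. The same average gave 37.2-fold for Zc3hav1l, 7.96-fold for Rab43, 8.67-fold for Cpeb2 and 8.52-fold for Fbxl22.

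**Figure D3:**
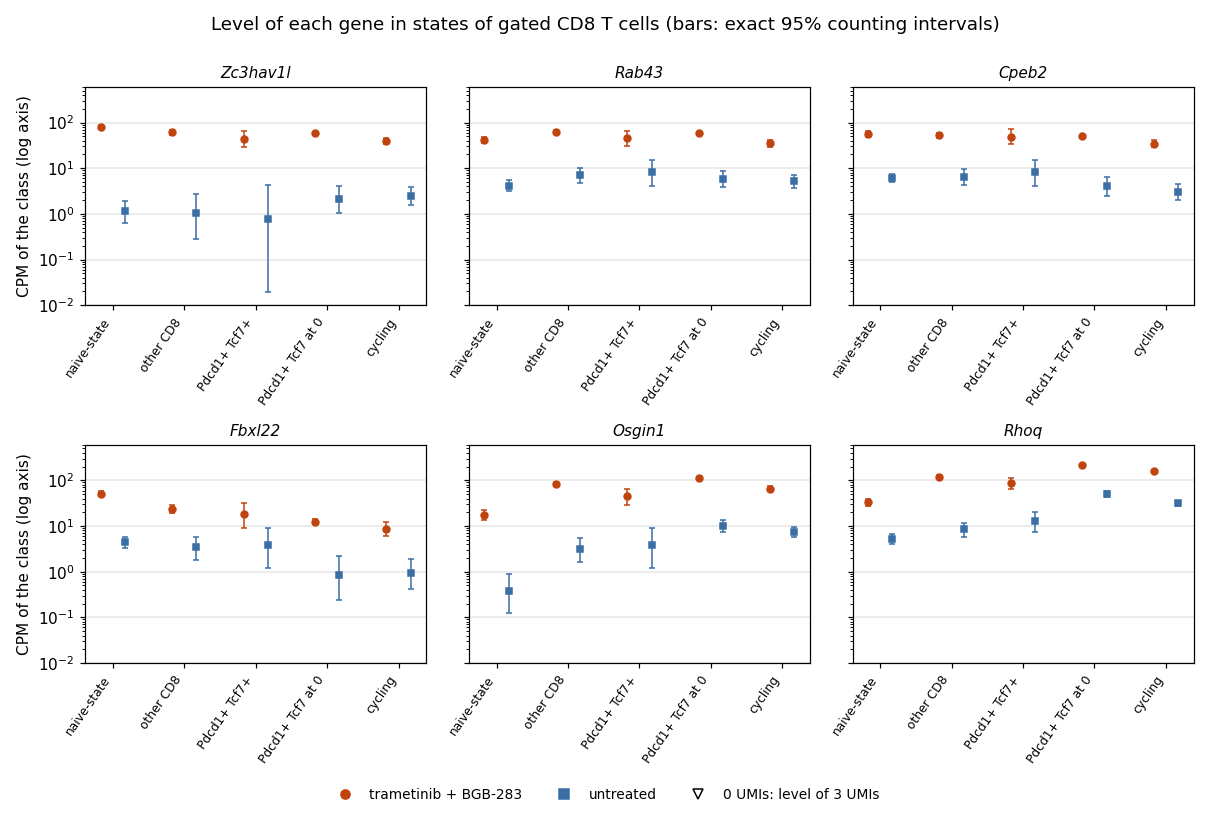
Level of each gene in 5 states of CD8 T cells, in CPM of the state on a log axis, treated (circles) and untreated (squares), with exact 95% counting intervals. Treated points lie above untreated points in every state, Fbxl22 is highest in naive-state cells of both libraries (51.3 and 4.39 CPM), and Osgin1 and Rhoq are highest in cells with Pdcd1 and no Tcf7 UMI.

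The levels were spread over many cells. After each cell was thinned to 2000 UMIs, which left out 69 treated and 57 untreated CD8 T cells below that depth, Rhoq was detected in 25.6% of treated (24.3 to 26.9%) and 2.73% of untreated (2.24 to 3.30%) CD8 T cells. Osgin1 was detected in 14.4% of treated and 0.49% of untreated cells, and Zc3hav1l in 11.9% of treated and 0.31% of untreated cells. Without thinning these shares were 54.2% and 9.85% for Rhoq, 33.0% and 2.49% for Osgin1, and 30.9% and 1.28% for Zc3hav1l, at median depths of 6412 UMIs in treated and 6328 UMIs in untreated cells. At least 1 member was detected in 54.95% of treated and 6.38% of untreated thinned CD8 T cells, and at least 2 members in 17.8% of treated and 0.08% of untreated cells. Thinned treated CD8 T cells with an Osgin1 UMI held a Rhoq UMI in 35.9% of 647 cells, against 23.8% of those without one. In cells with Pdcd1 and no Tcf7 UMI the same shares were 37.4% and 32.0%. No cell class could be taken to lack these genes, so the background of free RNA was read from T cell genes in non-T cells.

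**Figure D4:**
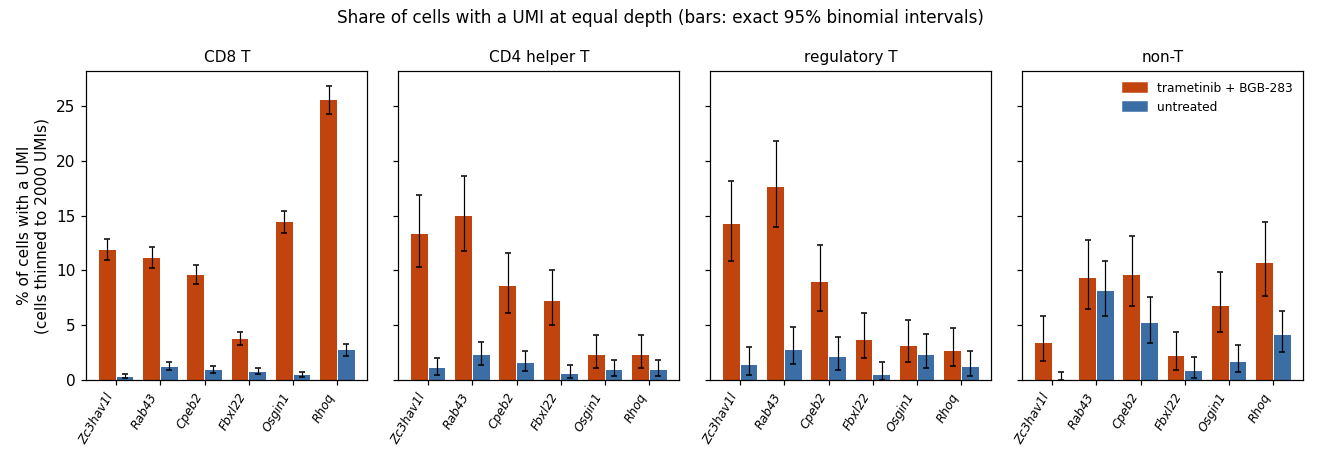
Percent of cells with a UMI of each gene after thinning every cell to 2000 UMIs, treated (left bars) and untreated (right bars), with exact 95% binomial intervals. In CD8 T cells Rhoq reached 25.6% of treated and 2.73% of untreated cells, and in regulatory T cells Osgin1 was at 3.16% of treated and 2.33% of untreated cells.

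Cells outside the T cell gate showed which of these differences were also present there. A set of 10 T cell genes that no gate used, among them Trbc2, Lck and Cd2, had a median of 1.54% of their T cell level in treated and 1.07% in untreated macrophages, and 0.56% in treated and 0.45% in untreated dendritic cells. Every member exceeded this share in the treated library: Zc3hav1l stood at 22.1% of its treated T cell level in treated macrophages and 14.6% in treated dendritic cells, and Osgin1 at 4.17% in treated dendritic cells from 3 UMIs. In non-T cells together 5 of the 6 genes were at least 2-fold higher in the treated library, beside 15.2% of genes, Rab43 being the exception. Of the 4 members that passed the background's filter on low levels in non-T cells, 3 were at least 2-fold higher. These 3 reached the filter's 20 CPM in the treated library only, so nothing is read from that count. Osgin1, Rhoq and Cpeb2 had 24.7, 61.0 and 49.7 CPM in treated and 6.43, 18.4 and 19.9 CPM in untreated non-T cells. The non-T cells differed in make-up, with 44 treated and 22 untreated natural killer (NK) cells, 59 and 10 neutrophils, 96 and 7 B cells, and 70 and 246 dendritic cells. Macrophages, 128 treated and 143 untreated, and dendritic cells were therefore read apart.

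In macrophages 4 of the 6 genes were at least 2-fold higher in the treated library, beside 12.4% of genes. Of the 3 members that passed the background's filter on low levels there, 2 were at least 2-fold higher. Of these, Rab43 reached the filter's 20 CPM in the treated library only. Zc3hav1l had 15 UMIs, 13.8 CPM, in treated macrophages and 0 in untreated ones. Against the floor of 3 UMIs it was 5.48-fold higher, a value without the counting error of the treated UMIs. Fbxl22 had 12 UMIs in treated and 1 UMI in untreated macrophages, 13.1-fold (1.95 to 561.9). Rab43 had 54.4 CPM in treated and 15.2 CPM in untreated macrophages, 3.59-fold (2.09 to 6.47), and Cpeb2 had 74.7 CPM in treated and 28.6 CPM in untreated macrophages, 2.61-fold (1.73 to 4.02). The intervals of Rab43 and Cpeb2 in macrophages did not overlap those in all T cells or in CD8 T cells. They did overlap those in CD4 helper and in regulatory T cells, and a difference between classes was not tested. With a stricter gate of 3 macrophage UMIs and 0 of other panels, the log2 lower bound of Zc3hav1l was 0.71, and with cells thinned to 2000 UMIs the log2 fold of Rab43 was 0.98, both below 2-fold.

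Osgin1 and Rhoq were below 2-fold in macrophages as gated, but not under every alternative. Osgin1 had 10.1 CPM in treated and 8.42 CPM in untreated macrophages, 1.21-fold (0.46 to 3.16), from 11 and 10 UMIs. Rhoq had 50.7 CPM in treated and 26.1 CPM in untreated macrophages, 1.94-fold (1.23 to 3.12). With the stricter gate the log2 fold of Rhoq was -0.02 instead of 0.96, and after thinning to 2000 UMIs it was 1.51. The log2 fold of Osgin1 was 2.40 after thinning, from 6 treated cells and 1 untreated cell with a UMI. Untreated macrophages held more Hba-a1 and Hbb-bs, at 16.6 summed CPM in treated and 6233 in untreated cells, and the part of this in the results was not tested.

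In dendritic cells 2 of the 6 genes were at least 2-fold higher in the treated library, beside 14.9% of genes. Neither passed the background's filter on low levels, and of the 3 members that did, 0 were at least 2-fold higher. Zc3hav1l had 9.15 CPM in treated and 1.17 CPM in untreated dendritic cells, 7.84-fold (2.36 to 29.8), from 9 and 5 UMIs. Fbxl22 had 6 UMIs in treated and 7 in untreated dendritic cells, 6.10 and 1.63 CPM, 3.73-fold (1.04 to 13.0). In dendritic cells with no T panel UMI its fold was 1.58 (0.16 to 8.81), from 2 treated and 6 untreated UMIs. Rab43, the cross-presentation gene, stood at 80.3 CPM in treated and 70.0 CPM in untreated dendritic cells, a fold of 1.15 (0.88 to 1.47). In dendritic cells with no T panel UMI it stood at 98.3 CPM in treated and 68.3 CPM in untreated cells, a fold of 1.44 (1.08 to 1.90). In untreated cells its dendritic level was 999.5% of its T cell level, and in treated cells 138.3%. Its level in the Xcr1 and Clec9a class, the type 1 conventional dendritic cells, was 114.4 CPM in 17 treated and 76.9 CPM in 183 untreated cells.

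Cpeb2 and Rhoq were below 2-fold in dendritic cells, at 1.36-fold (0.84 to 2.14) and 1.87-fold (1.11 to 3.06). Over the alternatives both lay on either side of 2-fold, with log2 folds from 0.415 to 1.36 for Cpeb2 and from 0.52 to 1.15 for Rhoq. In dendritic cells with no T panel UMI Cpeb2 was at 1.91-fold (1.12 to 3.15). Osgin1 had 3 UMIs in treated and 25 in untreated dendritic cells, 3.05 and 5.84 CPM, a fold of 0.52 (0.10 to 1.71). Its log2 fold ran from -2.22 to 0.38 over the alternatives, on both sides of 0. In migratory dendritic cells, gated on Fscn1, Ccl22 and Cacnb3, 3 of the 5 genes with a fold were at least 2-fold higher, beside 15.0% of genes. Those were Zc3hav1l, Fbxl22 and Rhoq, each from 8 or fewer treated and 4 or fewer untreated UMIs, with intervals that included 1. None of them passed the background's filter on low levels, and of the 2 members that did, 0 were at least 2-fold higher. Xcr1 stood at 124.1 CPM in treated and 398.3 CPM in untreated dendritic cells, so the types within this class differed between the libraries, and their part in the results was not tested.

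Smaller classes are given as levels only. Rhoq had 214.6 CPM (167.6 to 270.7) in treated and 31.7 CPM (13.7 to 62.5) in untreated NK cells. Osgin1 had 63.5 CPM in treated and 3.96 CPM in untreated NK cells, from 21 UMIs and 1 UMI, and Zc3hav1l had 54.4 CPM in treated and 3.96 CPM in untreated NK cells. In treated NK cells Rhoq and Osgin1 were thus nearer to CD8 than to CD4 helper T cells. In treated NK cells Cd8b1 stood at 0.79% of its CD8 T cell level, and the 10 T cell genes, of which NK cells also express several such as Cd2 and Lck, at a median of 41.25% of their T cell level. In neutrophils Osgin1 had 290.8 CPM (196.2 to 415.1) in 59 treated and 87.1 CPM (28.3 to 203.2) in 10 untreated cells. Its treated neutrophil interval lay above its level in every T cell class. Cpeb2 had 174.5 CPM in treated and 87.1 CPM in untreated neutrophils. Zc3hav1l had 1 UMI in treated and 0 in untreated neutrophils. In plasmacytoid cells, 7 treated and 95 untreated, Zc3hav1l, Osgin1 and Fbxl22 had 0 UMIs in both libraries, and the untreated library's floor of 3 UMIs was 4.28 CPM. In 96 treated B cells Rab43 had 17 UMIs (56.0 CPM), Rhoq 14 UMIs (46.1 CPM), Osgin1 7 UMIs (23.05 CPM), Cpeb2 6 UMIs, Fbxl22 4 UMIs and Zc3hav1l 3 UMIs, while 7 untreated B cells held 0 UMIs of each. In stromal and mast or basophil cells, at most 7 cells in a library, no member had more than 5 UMIs. Cells that met no gate, 196 treated and 86 untreated, had 59.1 CPM of Zc3hav1l in the treated library and 0 UMIs in the untreated one. Droplets with both T cell and macrophage transcripts, 328 treated and 777 untreated, had 49.5 CPM of Zc3hav1l in the treated and 2.11 CPM in the untreated library, and 82.25 CPM of Osgin1 in the treated and 5.05 CPM in the untreated library. These cells and the other mixed droplets are not described further. No cell met the melanoma gate, of which only Pmel was in the table.

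Relatives and partners of each gene were read in T cells as lists, beside a median log2 fold of 0.19 over all genes; 14.9% of genes were at least 2-fold higher and 4.2% at least 2-fold lower. Leaving ribosomal and mitochondrial genes out of the denominator shifted all log2 folds in T cells by -0.15. Among NRF2 targets 4 of 14 measured genes were at least 2-fold higher and 0 were lower, with a median of 0.23. Txnrd1, a thioredoxin reductase, had 98.7 CPM in treated and 32.3 CPM in untreated T cells, and Mafg, a partner of NRF2, 78.4 and 28.3 CPM in the same order. Tkt and Taldo1 of the pentose phosphate pathway were at 114.8 and 142.8 CPM in treated and 203.2 and 188.5 CPM in untreated T cells. The NRF2 list as a whole therefore stood near the median of all genes.

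Of 12 CCCH zinc finger and partner genes, 5 were at least 2-fold higher and 0 lower, with a median of 0.89. With ribosomal and mitochondrial genes left out, 3 were. Tiparp, a poly(ADP-ribose) polymerase with a CCCH zinc finger, had 117.7 CPM in treated and 27.6 CPM in untreated T cells, a 4.26-fold difference. Zc3hav1 itself had 581.6 CPM in treated and 197.9 CPM in untreated T cells, 2.94-fold, a smaller fold than its paralog Zc3hav1l at 29.6. Zfp36 and Zfp36l1, which bind AU-rich elements, were at 1.06-fold and 1.02-fold. Of 14 CPEB and deadenylation genes, 7 were at least 2-fold higher and 0 lower, with a median of 0.97, and 3 were higher with ribosomal and mitochondrial genes left out. Tob2 and Tob1, which recruit the CCR4-NOT deadenylase, were at 317.3 and 104.9 CPM in treated and 81.2 and 34.8 CPM in untreated T cells. Cpeb4, of the same subfamily as Cpeb2, had 31.4 CPM in treated and 11.5 CPM in untreated T cells and was named after its values were seen, while Btg2 and Cnot8 were at 0.93-fold and 0.90-fold.

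Partners of Rhoq and the Rab family had lower medians than these lists of RNA regulators. Of 9 Rhoq partners and exocyst genes 3 were 2-fold higher and 0 lower, with a median of 0.38. They included Rapgef1, an exchange factor for small GTPases, at 2.41-fold and Cdc42ep3, an effector of Cdc42 and Rhoq, at 2.27-fold, while the exocyst genes Exoc3 and Exoc7 were at 0.88-fold and 0.60-fold. Of 24 Rab genes 2 were 2-fold higher and 0 lower, with a median of 0.29: Rab8b at 3.24-fold and Rab6a at 2.03-fold. Rab37 and Rab8a were lowest, at 0.57-fold and 0.56-fold. The 10 measured F-box leucine-rich repeat and SCF genes had a median of 0.30, and 0 of them were 2-fold lower. Fbxl20 was at 1.57-fold. Fbxl6 and the ring finger subunit Rbx1 were at 0.90-fold and 0.58-fold.

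Likeness between genes was read as Pearson's r of log2(CPM + 1) over 26 class and library points, over 8542 genes. The points share 2 libraries, so r is a description and follows the difference between them. Zc3hav1l was most like Rbm27 (0.96), Pcf11 (0.94) and Wapl (0.94), and Osgin1 most like Slc35e1 (0.89), Fmnl1 (0.87) and Uba6 (0.87). Rhoq was most like Bicd2 (0.84), Tmem30a (0.82) and Eif2ak3 (0.81), and Rab43 was close to Arid1b (0.92) and Mbtd1 (0.91). Cpeb2 was most like Ctdsp2 (0.94), Tiparp (0.94) and Rybp (0.93), and Fbxl22 most like Pip5k1a (0.95), Slain2 (0.93) and Ulk1 (0.93). Between members r ran from 0.43 for Rhoq and Fbxl22 to 0.91 for Zc3hav1l and Fbxl22.

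Rhoq overlaps Pigf and Fbxl22 overlaps Herc1, each on the opposite strand, in the GENCODE annotation. How strand was used in counting is not given in the sources used here, so reads of these pairs may not be separated. Pigf was at 19.7 CPM in treated and 19.0 CPM in untreated CD8 T cells, 1.04-fold, and Herc1 at 143.1 CPM in treated and 54.8 CPM in untreated CD8 T cells, 2.61-fold (2.47 to 2.76). Rab43 overlaps the predicted gene Gm45140 on its own strand, and also Gm44423 and 9930120I10Rik. Cpeb2 overlaps Gm42551 and 6030400A10Rik on its own strand and the antisense gene Gm7854. Rhoq also overlaps AC154492.2 on its own strand. Zc3hav1l and Osgin1 overlap no annotated gene.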

How the data were processed

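The authors deposited 1 table of the natural log of 1 plus UMIs per 10000 UMIs of each cell, for 15121 genes and 17390 cells; Cell Ranger and Seurat were used upstream, per the submitters' processing notes, and their versions are not given in the sources used here. Those notes name the build GRCh38, a human build, although the symbols are mouse symbols. The ending of each cell name gave its library, by the sample number and the cell number in the labels. UMIs were recovered by dividing each cell's back-transformed values by the lowest one, and 38204229 of 38204229 nonzero results lay within 0.01 of a whole number (100.0%). Total UMIs were 58318786 in the treated and 95349992 in the untreated library.

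Cells with under 200 genes or over 10% mitochondrial UMIs were removed (358 treated, 216 untreated). The automatic Scrublet threshold marked 0.013% of treated and 0.033% of untreated cells and was taken as not working, so the highest 5% of scores in each library were removed (365 and 425 cells). A lineage needed 2 UMIs of its panel and at most 1 of every other panel. The exception was the NK panel, of which a T cell could carry any number of UMIs and still count as a T cell. Other cells past 2 panels were left out as mixed. UMIs were summed per class and library and given as CPM. Genes with at least 20 CPM in 1 library and 20 UMIs in both together formed the background. Folds are treated over untreated and were given for classes of at least 30 cells in both libraries. A library at 0 was set to a floor of 3 UMIs. Such a fold is called a lower bound for that floor only, and leaves out the counting error of the other library. Poisson, conditional binomial and Clopper-Pearson intervals are exact, at the 95% level. The ratio step was tested on simulated data.

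Members, lists and gates were chosen with earlier results of these data known. Named genes were the members, the 2 highest and 2 lowest of each list and the 3 genes most like each member; some genes and 1 list that this rule covers are not reported here. Nothing in the labels says how many animals a library holds. Alternatives covered the cell filter, doublets, gates, denominator, scaling, weight of cells, scale, depth, cycling cells, the mix of CD8 states and the fold; 2 were added after seeing the data. Promoters and overlaps come from RefSeq (GRCm38.p6) and GENCODE and were matched by symbol. The tools were scanpy 1.11.5, pandas 2.3.3, scipy 1.17.1 and numpy 2.4.6 under Python 3.11.15.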

Additional observations from a re-analysis of the deposited data

Results flagged for a closer look

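Osgin1 had folds on both sides of 1 in different cell classes. It was 21.2-fold higher in treated than in untreated CD8 T cells, while its fold, treated over untreated, was 0.94 in regulatory T cells (0.55 to 1.58) and 0.52 in dendritic cells (0.10 to 1.71). With 1 library per group the difference between classes was not tested, and both intervals include 1. Over the processing alternatives the log2 fold ran from -0.475 to 0.40 in regulatory T cells and from -2.22 to 0.38 in dendritic cells, on both sides of 0 in each.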

How the results depend on the processing

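Under every alternative that gives a fold, all 6 genes were at least 2-fold higher in all T cells and in CD8 T cells. In regulatory T cells the count was 4 to 5 under the other alternatives and 3 with a 4-fold limit, against 5 as reported, and the log2 fold of Osgin1 there ran from -0.475 to 0.40. In gamma delta T cells the count was 4 to 6. In non-T cells a 4-fold limit gave counts of 2 in all non-T cells, 2 in macrophages, 1 in dendritic and 1 in migratory dendritic cells. The dendritic count was also 1 with 1 T panel UMI for T cells, with 3 UMIs and 0 of others, with thinning to 2000 UMIs and, added after seeing the data, with 0 T panel UMIs, and it was 3 without a cell filter, with the stricter one, without doublet removal, without cycling cells and at 1.5-fold. The macrophage count was 3 to 6 under the alternatives other than the 4-fold limit. By the difference of mean deposited natural log values, 5 genes were higher in dendritic and 6 in migratory dendritic cells. With ribosomal and mitochondrial genes left out, the genes at least 2-fold higher were 3 in the CCCH list and 3 in the CPEB list.

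T cells were 86.25% of treated and 74.7% of untreated cells under the stricter cell filter (1000 genes, 5% mitochondrial UMIs), 92.7% and 92.2% with 1 T panel UMI, and 68.5% and 57.6% with 3 UMIs, and 74.8% of untreated cells without a cell filter. CD8 T cells were 60.5% of treated cells without a cell filter and 65.9% with the stricter one, 67.4% of treated and 53.0% of untreated cells with 1 T panel UMI, and 51.5% and 33.5% with 3 UMIs. The causes were not tested. Many non-T values rest on under 20 UMIs. No library could be left out with 1 per group. No paired analysis was possible because each group holds 1 library and no test was made.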
